A study of Drosophila melanogaster with 4 samples.

Results

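Wnt proteins are secreted, lipid-modified signals, and Frizzled proteins are the seven-pass membrane receptors that bind them. In flies, as in other animals, a Wnt bound to a Frizzled and its co-receptor Arrow stabilises the β-catenin Armadillo, which enters the nucleus and acts with the TCF factor Pangolin. Frizzled also works with Van Gogh, Prickle and Flamingo (encoded by stan) in planar cell polarity, and some Wnts are read by Ryk-type receptors such as Derailed during axon guidance in the embryonic nerve cord. The Wnt genes Wnt10, wg, Wnt2, Wnt4, Wnt5 and Wnt6 and the receptor genes fz and fz2 were picked by their symbols and make up 8 of the 14240 genes in the count tables. Wnt10 came to attention through its difference between the stages in the neural stem cells (NSCs) of these same libraries, so values of the 8 genes in that comparison are given as a description, without a test. WntD was not analysed here.

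The cells carried wor-GAL4, a driver active in NSCs, and UAS-mCD8-GFP, a membrane-bound green fluorescent protein, and were sorted for GFP by flow cytometry before single-cell RNA sequencing of transcript 3′ ends. The labels give NSCs, neurons and glia as the sorted cells. The later group was 24 h after larval hatching (24 h ALH), from dissected larval brains whose NSCs had reactivated (2 libraries, replicates 1 and 2). The earlier group was embryonic stage 17, when NSCs are quiescent (2 libraries, replicates 1 and 2), for which the labels name dissociated brains and the study's methods name embryos, with no dissection stated. Stage and tissue preparation therefore cannot be told apart. Every library carried the same transgenes, and no allele or treatment set the groups apart. Stage 17 replicate 1 was made with version 2 chemistry and the other 3 libraries with version 3.

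Of 4152 cells, 3567 passed the filters, namely 923 and 1015 cells at 24 h ALH and 409 and 1220 cells at stage 17. Library totals ran between 33037729 and 53458971 UMIs (unique molecular identifiers, 1 for each captured transcript) at 24 h ALH and between 2219533 and 15290553 at stage 17. Clusters were named from marker lists. NSC-like cells numbered 513 and 337 at 24 h ALH, against 27 and 27 at stage 17. Neuron-like cells numbered 188 and 275 at 24 h ALH, against 214 and 467 at stage 17. The summed level of 10 neuronal markers in NSC-like cells was 258 and 281 CPM (UMIs per 1000000 UMIs of the class) at 24 h ALH, against 2028 and 3682 CPM at stage 17. That of 6 NSC markers was 1068 and 1018 CPM at 24 h ALH, against 5764 and 1841 CPM at stage 17. In neuron-like cells the NSC markers summed to 64.4 and 47.0 CPM at 24 h ALH, against 48.2 and 26.1 CPM at stage 17. Each of the 6 had UMIs in every library in both classes. Each stage 17 NSC-like sum was small, 97152 and 293880 UMIs, and its deepest cell alone gave 12.2% and 20.3% of it. How far these features took part in the stage differences below was not tested. Further named classes were newborn neuron-like, glia-like and muscle-like, and 1186 cells stayed unnamed. These were 176 and 216 cells at 24 h ALH, against 116 and 678 at stage 17, so most cells of stage 17 replicate 2 had no named class. Of its unnamed cells, 206 were in cluster 7, led by DIP-eta. That cluster scored highest for the neuronal list, but with a lead of 0.46, below the 0.5 required. Those cells are outside the neuron-like class tested below. The libraries shared 13 barcodes, 5 of them among the kept cells.

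In assembly BDGP6 (dm6), 4 of the 8 genes lie within 122110 bases of chromosome 2L: Wnt4 (FBgn0010453, positions 7255419 to 7277171, minus strand), wg (FBgn0284084, 7307159 to 7316265, plus strand), Wnt6 (FBgn0031902, 7333714 to 7352542, plus strand) and Wnt10 (FBgn0031903, 7363379 to 7377528, plus strand). Wnt2 (FBgn0004360) is on 2R from 9494166 to 9503188 and Wnt5 (FBgn0010194) on X from 18501401 to 18505405. The receptor genes are both on 3L, with fz (FBgn0001085) from 14274343 to 14368639 and fz2 (FBgn0016797) from 19140975 to 19235373. All are protein-coding genes. Counts are given by gene, so no exon or UTR is given for a UMI, and whether intronic reads were counted is not known here. CG13482 overlaps fz on its own strand and held 154 UMIs against 5836 for fz, CG31909 lies antisense to Wnt4 and held 2 UMIs, and an antisense RNA annotated within Wnt10 was not a counted gene.

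Wnt10, the fly member of the Wnt10 subfamily, was carried by single cells. In NSC-like cells it had 4 and 0 UMIs at 24 h ALH, against 15 and 34 UMIs at stage 17. As levels these were 0.109 and 0 CPM at 24 h ALH, against 154 and 116 CPM at stage 17, so the stages did not overlap. The share of all genes without overlap was not counted, here or for the genes below. By the edgeR test, a different measure, 34.4% of all 7245 genes tested in NSC-like cells were called. The fitted log2 fold change was -10.51 ± 0.76 (SE; 24 h ALH over stage 17, n = 2 each), given as a description. This SE does not measure the spread between cells. The 15 UMIs of stage 17 replicate 1 all lay in 1 of 27 NSC-like cells, and the 34 UMIs of replicate 2 also lay in 1 of 27. With each of those cells left out, stage 17 NSC-like cells held no Wnt10 UMI in either library. At 24 h ALH the 4 UMIs were spread over 4 of 513 cells, and 0 of 337 cells in replicate 2 allows a share of cells with a UMI of up to 0.890% (3 counts of 337), for counting error only.

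Both stage 17 NSC-like cells that carried Wnt10 belonged to cluster 11, led by pnt, erm, Dll and Sp1, which held 5 and 4 cells at stage 17. The cell of replicate 1 had 11102 UMIs, 2.91 times the median of its library, with 13 UMIs of the NSC gene dpn, 16 of wor and 0 of the synaptic gene nSyb. The cell of replicate 2 had 57556 UMIs, 11.8 times its library median, with 8 UMIs of dpn, 18 of wor, 41 of nSyb and 273 of hdc. Neither was called a doublet by the caller used.

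Most Wnt10 transcripts were outside the NSC-like class. Over all kept cells the gene had 459 UMIs in 53 cells, and 8 cells held 50% of them. In whole libraries it averaged 4.37 and 2.99 CPM at 24 h ALH, against 13.7 and 9.87 CPM at stage 17, in 2.82% and 1.18% of cells against 1.22% and 0.820%. At 24 h ALH, 181 of 214 UMIs in replicate 1 and 46 of 95 in replicate 2 came from cluster 4, an unnamed cluster led by hdc, goe and Thor, where 11 and 5 cells had the gene. Cluster 9, led by insb, nerfin-1 and ase, added 24 UMIs in 9 cells and 5 UMIs in 3 cells. In neuron-like cells Wnt10 had 1 and 40 UMIs at 24 h ALH (0.271 and 10.9 CPM), against 12 and 73 UMIs at stage 17 (10.1 and 10.2 CPM), and the groups overlapped. Of the 40 UMIs in 24 h ALH replicate 2, 37 came from 2 cells of cluster 6, led by the GABAergic genes Gad1 and VGAT.

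**Figure D1:**
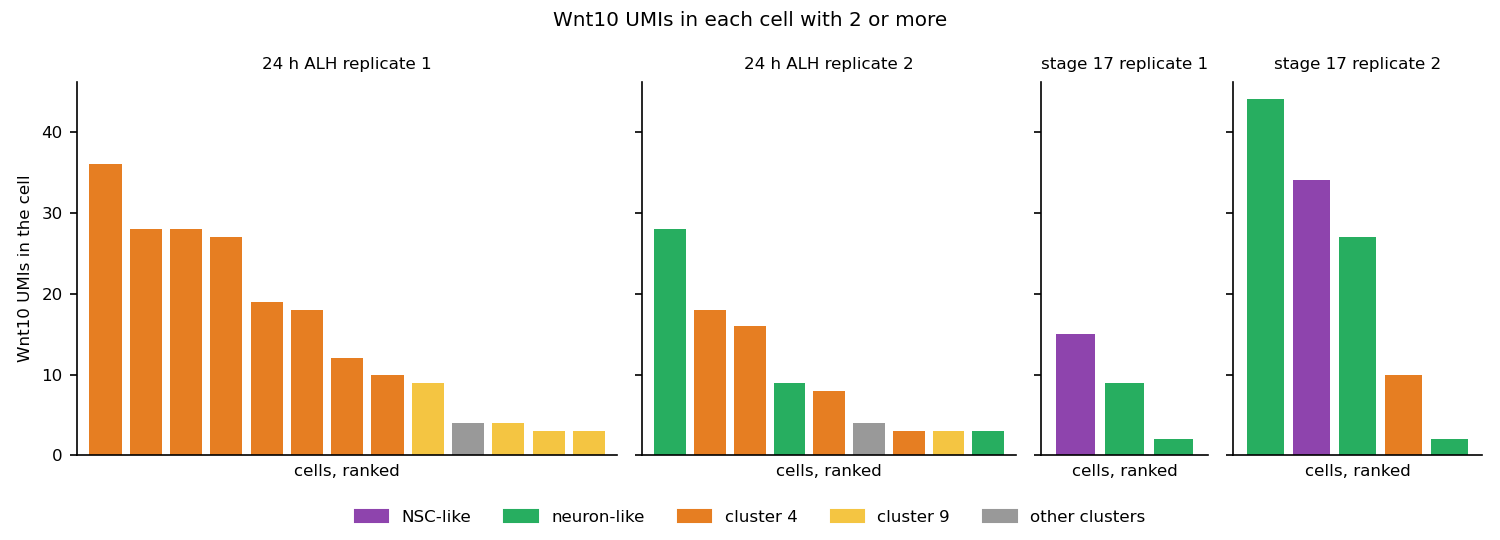
Wnt10 UMIs in every kept cell that held 2 or more (vertical axis, 1 bar a cell, ranked within its library; colours give the class or cluster). The 30 cells include 1 NSC-like cell in each stage 17 library, with 15 and 34 UMIs, and none at 24 h ALH, where cluster 4 supplied the tallest bars of replicate 1.

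All 30 cells with 2 or more Wnt10 UMIs also held the neuronal gene elav, which 88.8% of all kept cells held. Hey, a Notch target of newborn neurons, was found in 11 of 13 such cells in 24 h ALH replicate 1 and in 4 of 9 in replicate 2, where 16.1% and 21.8% of all cells had it, and at stage 17 in 1 of 3 and 1 of 5 such cells, where 5.13% and 2.46% of all cells had it. Of the NSC genes, dpn was found in 13 of the 30 cells, wor in 15 and ase in 19, where 32.9%, 34.7% and 33.9% of all cells had them. At 24 h ALH the cells with dpn were 7 of 13 and 3 of 9, against 67.2% and 40.7% of all cells, and at stage 17 they were 2 of 3 and 1 of 5, against 10% and 8.2% of all cells. The glial gene repo was found in 1 of the 30. Gene shares grow with depth, which was not matched in these counts.

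Which cells count as NSC-like changed the Wnt10 contrast. With a gate that asked for dpn and wor together, NSC-like cells at 24 h ALH had 64 UMIs in 11 cells and 12 UMIs in 3 cells (1.56 and 0.545 CPM), against 18 UMIs in 3 cells and 34 UMIs in 1 cell at stage 17 (68.0 and 31.0 CPM). The fitted log2 fold change was then -4.93 ± 0.65. With finer clusters it was -4.16 ± 0.31, from 82 and 37 UMIs at 24 h ALH, against 15 and 34 at stage 17. NSC-like cells at stage 17 numbered 33 and 42 with the gate and 49 and 50 with finer clusters. Of the latter, 22 and 23 lay in a single finer cluster led by sna and hig, with dpn in 66.9% of its cells. The main class held 27 and 27 cells at stage 17, so it leaves out cells that the other definitions take in.

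Wnt4, which acts in cell migration in the fly ovary, had 11069 UMIs in 1294 cells. In NSC-like cells it stood at 28.1 and 21.4 CPM at 24 h ALH, against 813 and 398 CPM at stage 17. In neuron-like cells it stood at 189 and 187 CPM at 24 h ALH, against 643 and 493 CPM at stage 17. Neither pair of groups overlapped. In neuron-like cells, where the difference could be tested, Wnt4 fell by 1.69 on the log2 scale at 24 h ALH (SE 0.21; edgeR quasi-likelihood adjusted p = 0.00914, lower in both libraries). Of all 7208 genes tested there, 30.5% were called, 12.2% lower and 18.4% higher at 24 h ALH. Each of the neuron-like clusters 0, 5, 6 and 10 showed the same order, from 159 to 242 CPM in its 24 h ALH sums, against 402 to 767 CPM at stage 17. Cluster 14, led by the vesicular transporter gene prt and the dopamine receptor gene Dop1R2, had little Wnt4 at either stage, 6.99 and 3.58 CPM at 24 h ALH, against 0 and 123 CPM at stage 17.

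A minority of cells held most Wnt4 transcripts, since 124 cells held 50% of them. Neuron-like cells with 10 or more UMIs numbered 20 of 188 and 27 of 275 at 24 h ALH, against 25 of 214 and 88 of 467 at stage 17, and they held between 71.2% and 87.7% of the class's Wnt4 UMIs. Cells differ in depth, so shares were also read after each cell was thinned to 1000 UMIs, which left out 6 neuron-like and 3 NSC-like cells of stage 17 replicate 1. At that depth 10.1% (95% exact binomial interval 6.20 to 15.3) and 8.36% (5.38 to 12.3) of the neuron-like cells had a Wnt4 UMI at 24 h ALH, against 23.6% (18.0 to 29.9) and 23.6% (19.8 to 27.7) at stage 17. In NSC-like cells the thinned shares were 2.34% and 2.08% at 24 h ALH, against 50% (29.1 to 70.9) and 22.2% (8.62 to 42.3) at stage 17. Before thinning, NSC-like shares were 26.1% and 21.1% at 24 h ALH, against 48.1% and 33.3% at stage 17, at median depths of 72243 and 61167 UMIs, against 2166 and 3111 UMIs. Intervals cover counting error only.

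At stage 17 Wnt4 was also found in glia-like cells, at 843 and 332 CPM, against 18.2 and 25.7 CPM in glia-like cells at 24 h ALH. The thinned share of stage 17 glia-like cells with Wnt4, 24.1% and 30.6%, was close to that of neuron-like cells. These glia-like cells also held 3749 and 14520 CPM of the 10 neuronal markers, of which neuron-like cells held 22164 and 26402 CPM. Of their Wnt4 UMIs, 150 of 170 in replicate 1 lay in 5 of 36 cells, and 98 of 148 in replicate 2 lay in 4 of 36. Free RNA in droplets can add UMIs to cells that do not express a gene, and its part here was not tested. The order of classes at stage 17 for Wnt4 was not resolved. NSC-like, neuron-like and glia-like means of 606 ± 293, 568 ± 106 and 588 ± 361 CPM (SD, n = 2) differed by less than their spread. At 24 h ALH the neuron-like mean of 188 ± 1.29 CPM stood above the NSC-like mean of 24.7 ± 4.73 CPM and the glia-like mean of 21.9 ± 5.29 CPM, and the last pair did not differ beyond the spread.

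**Figure D2:**
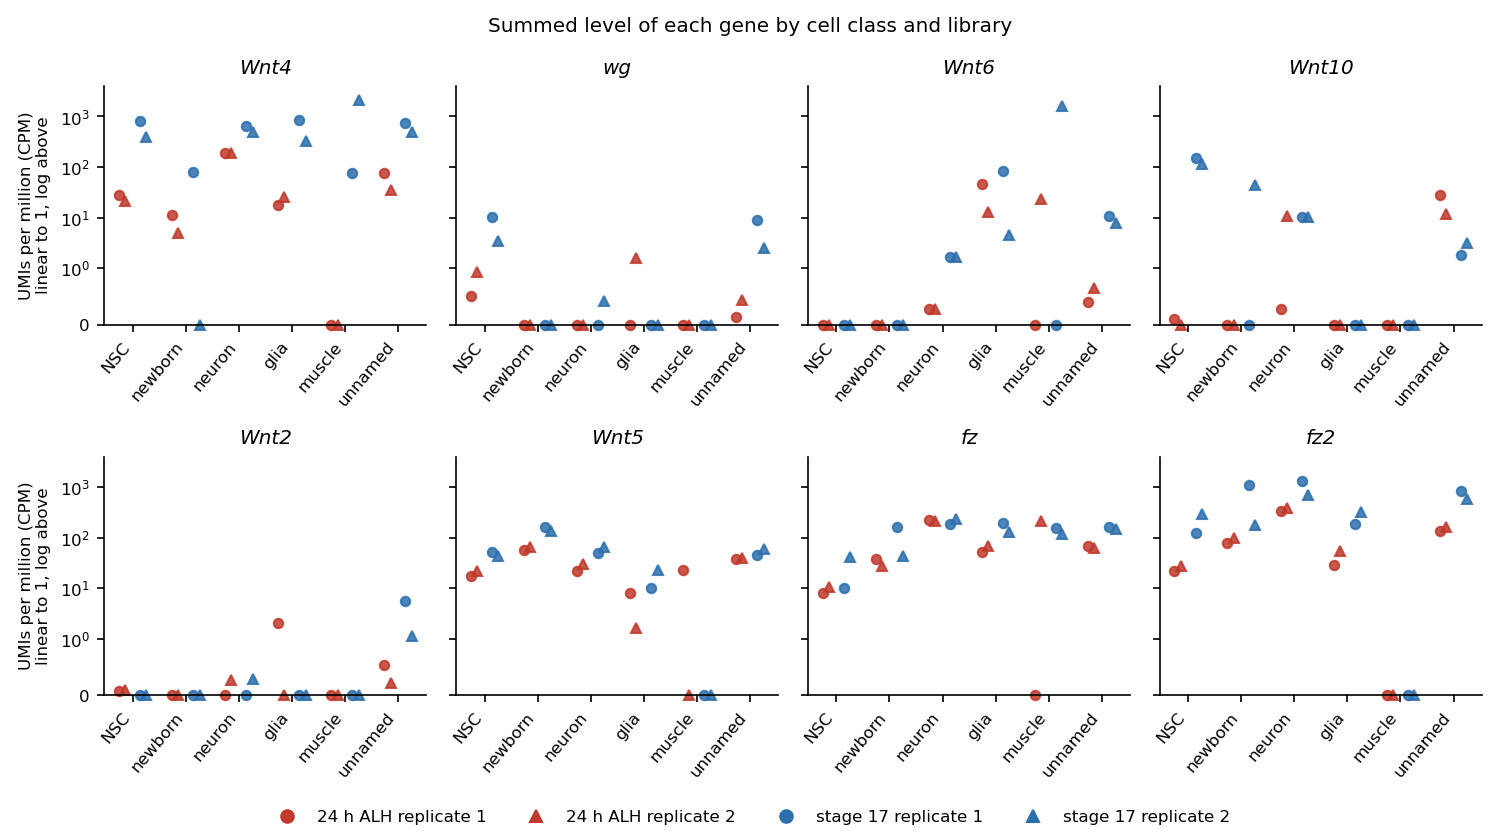
Level of each of the 8 genes (vertical axis, CPM of the class sum, linear to 1 and logarithmic above) in each cell class (horizontal axis), 1 point a library, 24 h ALH in red and stage 17 in blue. Wnt4 and fz2 points at stage 17 lie above those at 24 h ALH in NSC-like and neuron-like cells, and most sums of wg and Wnt2 lie at or near 0.

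Wnt5, the ligand that repels axons through the Derailed receptor in the embryonic nerve cord, was found broadly and at low level, with 2807 UMIs in 1502 cells, 402 of which held 50%. In neuron-like cells it stood at 22.2 and 30.2 CPM at 24 h ALH, against 49.9 and 64.7 CPM at stage 17, and fell by 1.27 on the log2 scale (SE 0.29; edgeR adjusted p = 0.0286, lower in both libraries). That call was lost when neuron-like cells were taken by nSyb without dpn (log2 fold change -0.69, edgeR adjusted p = 0.119) and when cells were thinned (-0.85, adjusted p = 0.306). In NSC-like cells Wnt5 stood at 17.9 and 21.9 CPM at 24 h ALH, against 51.5 and 44.2 CPM at stage 17, where the sums rested on 5 and 13 UMIs. Newborn neuron-like cells were highest at 24 h ALH with 56.3 and 63.9 CPM (28 and 145 cells), against 159 and 133 CPM from 5 and 2 cells at stage 17. Among 24 h ALH class means, newborn neuron-like (60.1 ± 5.41 CPM) stood above neuron-like (26.2 ± 5.65; SD, n = 2). Neuron-like cells stood above NSC-like cells (19.9 ± 2.84) in both 24 h ALH libraries, though the intervals of mean ± SD overlapped.

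wg, the founding Wnt gene, which patterns segments and appendages, was scarce, with 63 UMIs in 36 cells. NSC-like cells held 19 and 19 of these UMIs at 24 h ALH, in 9 and 6 cells (0.517 and 0.940 CPM), against 1 and 1 UMI at stage 17 (10.3 and 3.4 CPM from the small sums). Neuron-like cells held 0 and 0 at 24 h ALH, against 0 and 3 at stage 17. At 24 h ALH, all 4 cells with 2 or more wg UMIs in replicate 1 and all 4 in replicate 2 also had 2 or more of its neighbour Wnt4, found at that count in 20% and 13.1% of all cells. At stage 17 only 1 cell in each library had 2 or more wg UMIs, and 0 and 1 of them had Wnt4.

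Wnt6, which lies between wg and Wnt10, had 207 UMIs in 45 cells and none in any of the 904 NSC-like cells. That depended on how the class was drawn, since the gate on dpn and wor took in 18 UMIs in 2 cells of 24 h ALH replicate 1, and finer clusters 6 UMIs in 1 cell of stage 17 replicate 2. A single muscle-like cell of stage 17 replicate 2 held 92 of them. Cluster 13, a glia-like cluster, held 23 and 8 at 24 h ALH (80.5 and 14.9 CPM), against 14 and 2 at stage 17 (100.4 and 8.65 CPM). One cell held 15 of the 23 UMIs of 24 h ALH replicate 1, with 1 UMI each of dpn and wor, 5 of the glial gene repo and 13 of the glial gene nrv2. Another cell there held 6 Wnt6 UMIs, with 0 of repo and 1 of nrv2. In 24 h ALH replicate 2, cluster 13 cells with 3 and 4 Wnt6 UMIs held 8 and 0 of repo and 138 and 16 of nrv2. In stage 17 replicate 1, cluster 13 cells with 5, 3 and 6 Wnt6 UMIs held 0 of repo each and 0, 0 and 1 of nrv2. Cluster 12, unnamed, with the cuticle gene Cpr67Fa1 among its leading genes, held 3 and 1 at 24 h ALH, against 6 and 14 at stage 17. Neuron-like cells held 1 and 1 at 24 h ALH, against 2 and 12 at stage 17. Wnt2, known for its role in the testis and trachea, had 22 UMIs in 19 cells in all, of which NSC-like cells held 3 and 2 at 24 h ALH, against 0 and 0 at stage 17. Levels this low were near the limit of 3 counts that a count of 0 allows, and no difference in Wnt2 was detectable at this depth.

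fz, which encodes Frizzled, a receptor for both the Armadillo and the planar polarity branch, was higher in neuron-like than in NSC-like cells in every library, and its stage difference in neuron-like cells did not pass the test. It had 5836 UMIs in 1624 cells. In neuron-like cells it stood at 222 and 212 CPM at 24 h ALH, against 187 and 233 CPM at stage 17, groups that overlapped (log2 fold change -0.08 ± 0.24 SE, edgeR adjusted p = 0.836). NSC-like cells had 8.06 and 10.6 CPM at 24 h ALH, against 10.3 and 40.8 CPM at stage 17, which also overlapped. The stage 17 NSC-like values came from 1 and 12 UMIs, and they moved with the way the class was drawn. With finer clusters NSC-like fz was 14.3 and 15.5 CPM at 24 h ALH, against 158 and 103 CPM at stage 17, and with the gate on dpn and wor it was 13.9 and 15.2 CPM at 24 h ALH, against 128 and 97.7 CPM at stage 17. Neither of these overlapped (log2 fold changes -2.72 and -2.55 as descriptions). At 24 h ALH, with the 8 muscle-like and all unnamed cells set aside, the class means ran from 217 ± 7.33 CPM in neuron-like cells through 60.8 ± 11.6 in glia-like and 32.9 ± 7.99 in newborn neuron-like to 9.32 ± 1.79 CPM in NSC-like cells, each step wider than the SDs (n = 2). At stage 17 the library values of neuron-like (210 ± 32.8 CPM) and glia-like cells (162 ± 44.7 CPM) overlapped, so their order was not resolved.

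Among neuron-like clusters, cluster 14 was the highest for fz in every library, with 680 and 748 CPM at 24 h ALH, against 384 and 482 CPM at stage 17, from 14 and 23 cells and from 5 and 12 cells. Cluster 10 was the lowest in every library, at 67.8 and 65.7 CPM at 24 h ALH, against 77.6 and 151 CPM at stage 17. Clusters 0, 5 and 6 lay between 155 and 259 CPM in all libraries. These clusters were built from the same cells, so the order is a description.

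fz2, which encodes the other main Wingless receptor, was the most widely detected of the 8 genes, with 15836 UMIs in 2593 cells. In neuron-like cells it stood at 334 and 384 CPM at 24 h ALH, against 1318 and 679 CPM at stage 17, and fell by 1.56 on the log2 scale (SE 0.32; edgeR adjusted p = 0.022, lower in both libraries). The stage 17 libraries differed by nearly as much as the stages did, the higher value belonging to the library of version 2 chemistry. The part of chemistry in this was not tested. Thinned shares of neuron-like cells were 34.6% (27.8 to 41.8) and 33.5% (27.9 to 39.4) at 24 h ALH, against 63.5% (56.5 to 70.0) and 41.8% (37.2 to 46.4) at stage 17. Without thinning the shares were alike, 93.1% and 89.1% at 24 h ALH, against 90.2% and 91.2% at stage 17, at median depths of 16416 and 11330 UMIs, against 4373 and 10689.

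In NSC-like cells fz2 stood at 22.2 and 27.1 CPM at 24 h ALH, against 124 and 299 CPM at stage 17, without overlap. Of the 88 UMIs in stage 17 replicate 2, 60 came from 1 cell. With the top cell of each library left out, the fitted log2 fold change, given as a description, was -1.71 ± 0.32 in place of -3.15 ± 0.36. Finer clusters gave 35.6 and 42.9 CPM at 24 h ALH, against 1022 and 579 CPM at stage 17 (log2 fold change -3.98), and the gate gave 36.2 and 43.3 CPM at 24 h ALH, against 873 and 624 CPM at stage 17 (-3.84). The stage 17 NSC-like level of fz2 thus ran from 124 to 1022 CPM with the definition of the class. Back in neuron-like cells, each of clusters 0, 5, 6, 10 and 14 had lower fz2 in both 24 h ALH libraries than in both stage 17 libraries. Unlike for fz, cluster 14 was the lowest of them at both stages, with 126 and 107 CPM at 24 h ALH, against 878 and 457 CPM at stage 17. None of the 29 muscle-like cells held an fz2 UMI, too few cells to set a useful limit.

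**Figure D3:**
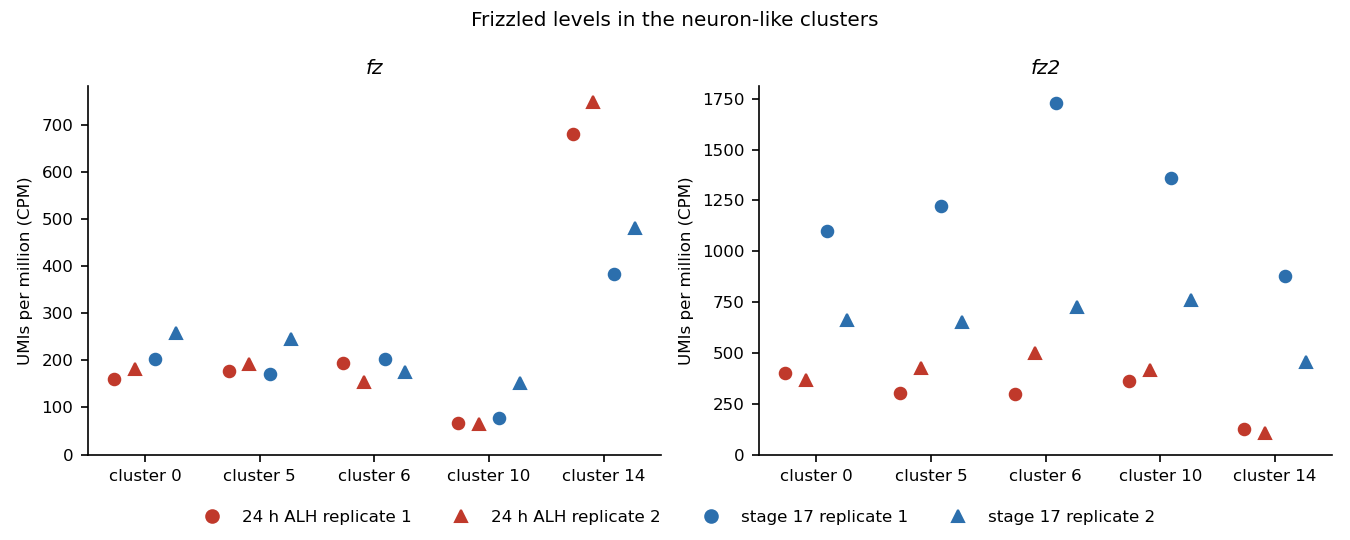
Levels of fz (left) and fz2 (right) in each neuron-like cluster (vertical axis, CPM of the cluster sum, from 0), 1 point a library, 24 h ALH in red and stage 17 in blue. For fz, cluster 14 is the highest, with its 24 h ALH points above its stage 17 points. Cluster 10 is the lowest for fz, with its 24 h ALH points below its stage 17 points, and the other clusters lie between. For fz2 the stage 17 points stand above the 24 h ALH points in all 5 clusters.

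**Figure D4:**
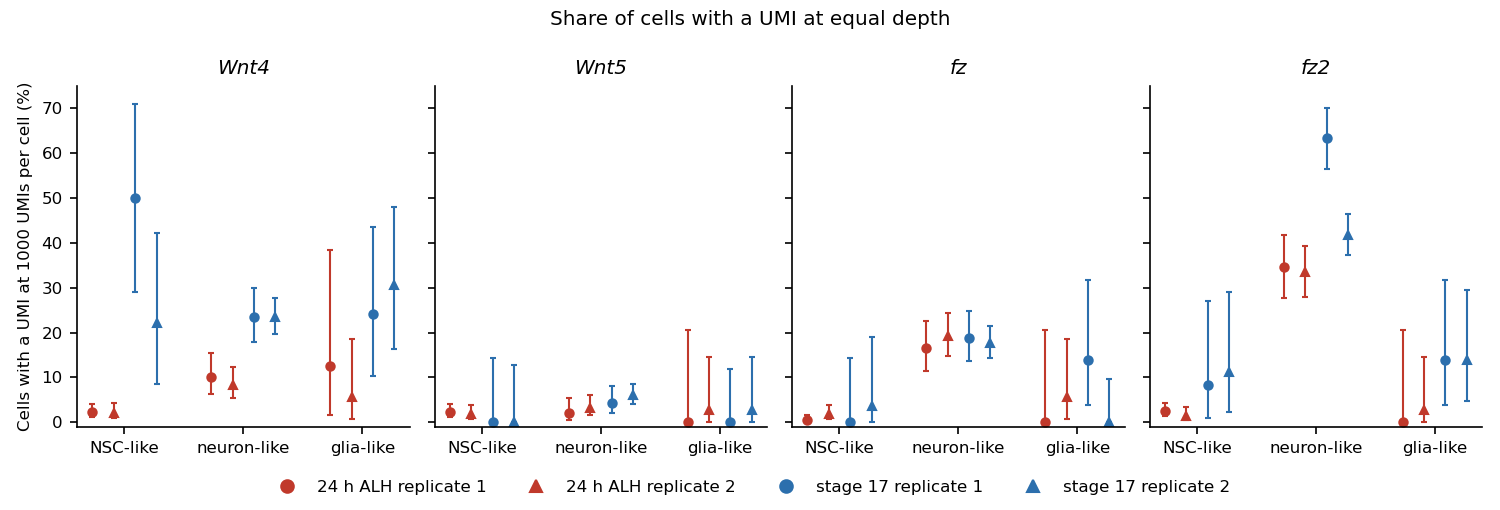
Share of cells with at least 1 UMI of Wnt4, Wnt5, fz or fz2 after thinning each cell to 1000 UMIs (vertical axis, percent, with 95% exact binomial intervals for counting error) in NSC-like, neuron-like and glia-like cells. Wnt4 and fz2 shares of neuron-like cells are higher at stage 17, whereas fz shares lie between 16.5% and 19.3% in all 4 libraries.

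Cells with fz mostly had fz2 as well. Of cells with 2 or more fz UMIs, 75.8% and 73.8% at 24 h ALH had 2 or more of fz2, against 80.0% and 87.7% at stage 17, where fz2 at that count was found in 50.3% and 47.3% of all cells at 24 h ALH, against 56.7% and 67.7% at stage 17. For cells with 2 or more Wnt4 UMIs the shares with fz2 were 63.8% and 73.7% at 24 h ALH, against 68.5% and 77.5% at stage 17. Deep cells hold more of every gene, which these shares do not correct for.

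Taking the neuron-like comparison as a set, 5 of the 8 genes passed the filter on low counts and 3 were called, all lower at 24 h ALH (Wnt4, Wnt5 and fz2). The share called lower among all genes there was 12.2%, and the median log2 fold change was -0.00. The genes that could not be tested were wg, Wnt2 and Wnt6. With 1 of the 24 h ALH libraries left out, no call on these 3 genes held, with edgeR adjusted p of 0.0598 and 0.0598 for Wnt4, 0.265 and 0.0946 for Wnt5 and 0.114 and 0.0732 for fz2 (without replicate 1 and without replicate 2). The library names call the replicates biological, and nothing further says how they were collected. Within stage 17, chemistry and replicate cannot be told apart.

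Genes that release, modify or read Wnts were listed by role. Of 41 such genes in the tables, 35 were tested in neuron-like cells, and 5 fell and 1 rose at 24 h ALH, where 12.2% of all genes were called lower and 18.4% higher. The median log2 fold change was -0.33, beside -0.00 for all genes. In the receptor and co-receptor list 3 of 8 fell, with a median of -1.04. otk2 and otk encode the Off-track proteins, which bind Wnts and Frizzleds. otk2 stood at 19.7 and 24.7 CPM at 24 h ALH, against 126 and 127 CPM at stage 17, and fell by 2.62 (SE 0.24; edgeR adjusted p = 0.00794). otk stood at 40.6 and 53.8 CPM at 24 h ALH, against 80.3 and 148 CPM at stage 17, and fell by 1.43 (SE 0.39; adjusted p = 0.0444). The receptor tyrosine kinase gene Ror stood at 36.3 and 36.2 CPM at 24 h ALH, against 93.8 and 63.3 CPM at stage 17, and fell by 1.20 (SE 0.24; adjusted p = 0.0208). The Ror call was lost in 4 of 15 alternatives and the otk call in 2, while otk2 kept its call in all 15. The Wnt5 receptor gene drl had 60.3 and 64.1 CPM at 24 h ALH, against 74.4 and 143 CPM at stage 17, and did not pass (adjusted p = 0.109). Neither did fz4 (log2 fold change -0.33, adjusted p = 0.43) or the co-receptor gene arr (-0.64, adjusted p = 0.298), and fz3 was too low to test, with 5 and 6 UMIs at 24 h ALH, against 1 and 11 at stage 17.

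In neuron-like cells 1 of 16 tested genes of the Armadillo branch was called, beside 30.5% of all genes. That gene was nkd, an inhibitor induced by Wingless signalling, at 172 and 204 CPM at 24 h ALH, against 378 and 328 CPM at stage 17 (fell by 1.01, SE 0.21; edgeR adjusted p = 0.0232). Its call was lost in 3 of 15 alternatives, among them thinning (log2 fold change -0.51, adjusted p = 0.354). In the planar polarity list 1 of 6 tested genes fell and 1 rose. Vang fell by 0.91 (SE 0.24; edgeR adjusted p = 0.0413), a call lost in 6 of 15 alternatives, among them the gate (-0.26, adjusted p = 0.47). None of 5 tested genes for ligand release and spread, among them the Wnt carrier gene wls, was called.

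In NSC-like cells 37 of the 41 genes were tested, of which 9 fell at 24 h ALH and none rose (median log2 fold change -0.43). Of all 7245 genes 17.4% were called lower and 17% higher, at a median of 0.19. Those that fell were the receptor genes Drl-2, drl and arr, the kinase genes sgg and CkIalpha and the TCF gene pan of the Armadillo branch, nkd, and stan and pk of the polarity list. Calls were lost for sgg in 7 of 15 alternatives, pan in 5 of 15 and pk in 8 of 14. They were lost for arr in 6 of 14 and stan in 4 of 14, and for drl, Drl-2, CkIalpha and nkd in 1 to 3. In 1 further alternative each, pan, pk and Drl-2 changed sign. nkd stood at 78.7 and 77.1 CPM at 24 h ALH, against 268 and 225 CPM at stage 17 (fell by 1.40, SE 0.17; edgeR adjusted p = 0.00147). CkIalpha fell by 1.03 (SE 0.17; adjusted p = 0.00403), with 49 and 113 UMIs in the stage 17 sums. drl fell by 2.98 (SE 0.43; adjusted p = 0.00304), though 48 of the 70 stage 17 UMIs in replicate 2 were from 1 cell. Drl-2 had 1.39 and 0.891 CPM at 24 h ALH, against 0 and 167 CPM at stage 17, where 41 of 49 UMIs were from 1 cell, so its call (log2 fold change -6.31, adjusted p = 0.00494) rests on stage 17 replicate 2. arr (-2.05, adjusted p = 0.0456) rested on 4 and 4 UMIs at stage 17. Ror (-0.79, adjusted p = 0.105), fz4 (-0.86, adjusted p = 0.258) and fz3 (-0.88, adjusted p = 0.674) did not pass. When the cell with most UMIs of each gene was left out of every library, 4 of the 37 were called lower and 4 higher. That step takes 1 of 27 cells from each stage 17 sum, but 1 of 513 or 337 at 24 h ALH. It therefore tends to lower stage 17 levels more, and cannot decide how far the one-sided split rests on single cells. With only the deepest cell of each library left out, 8 were called lower and 1 higher.

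**Figure D5:**
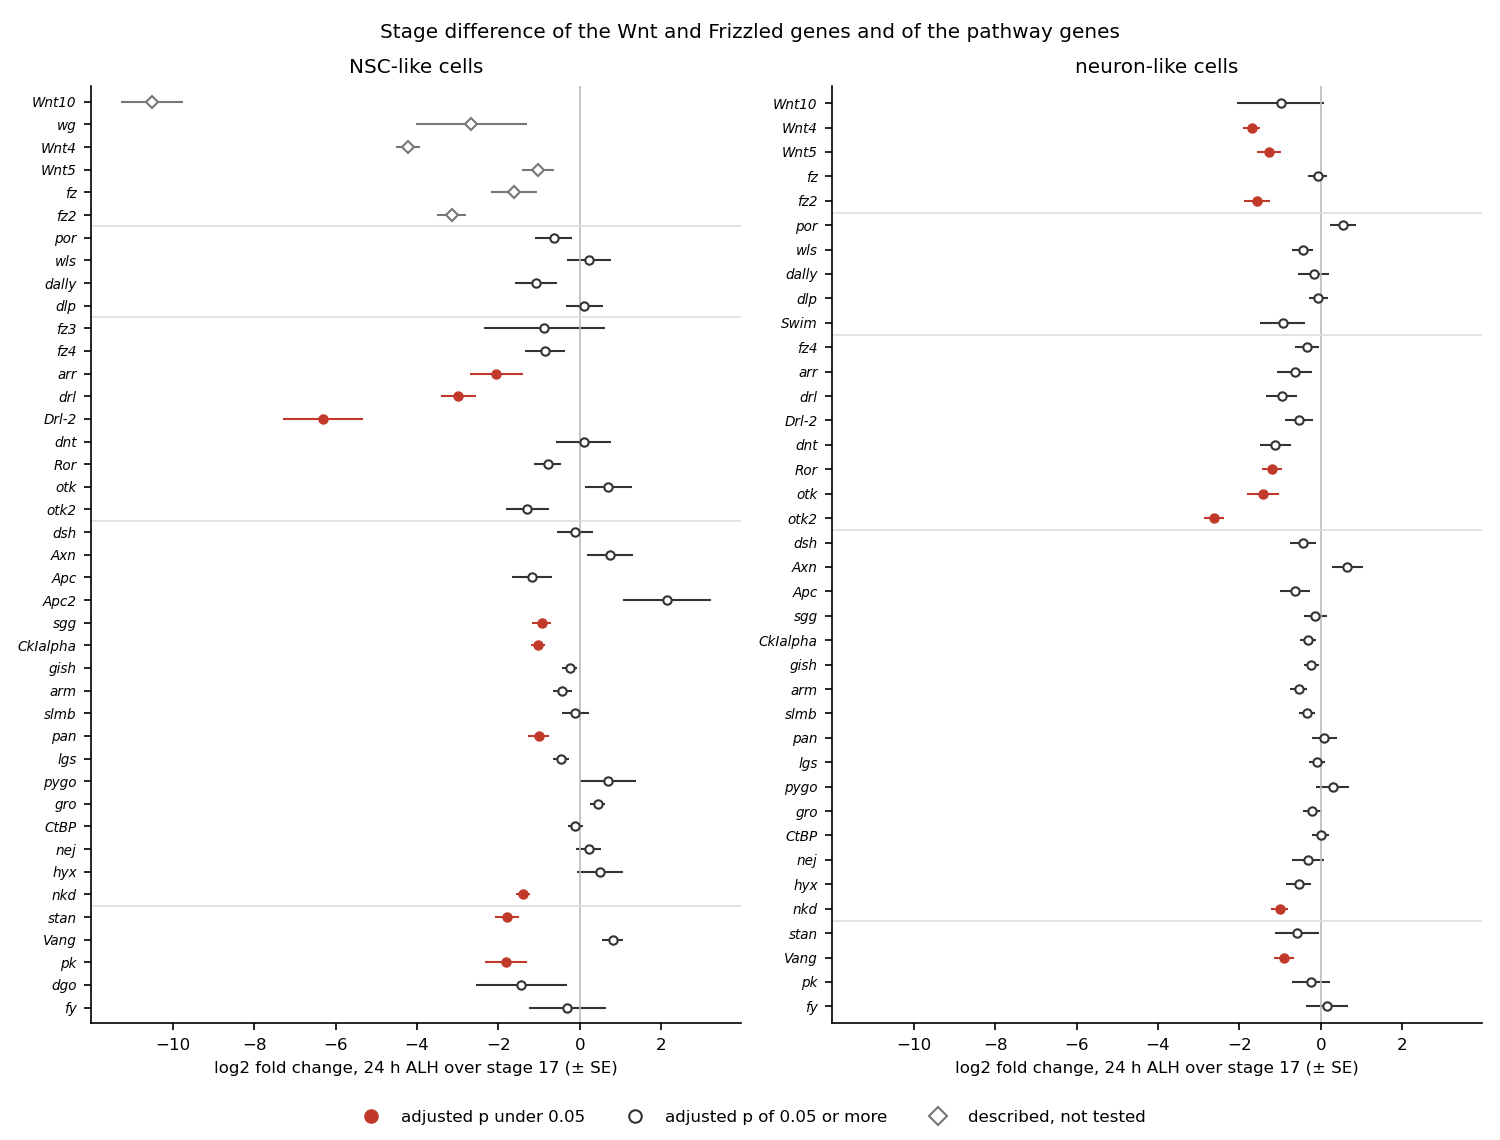
Log2 fold change of 24 h ALH over stage 17 with its SE (horizontal axis) for the tested genes, 2 of the polarity list left out (rows, the Wnt and Frizzled genes on top, then the 4 role lists, set apart by lines) in NSC-like cells (left) and neuron-like cells (right). Filled red points passed an adjusted p of 0.05 and open grey diamonds are descriptions without a test. In neuron-like cells Wnt4, Wnt5 and fz2 lie left of 0 while fz lies at -0.08.

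The genes whose level across 17 sums of a class in a library was most like that of each gene were found by Pearson's r of log2(CPM + 10). The sums share libraries and cells, so r is a description. For Wnt10 they were gsb (r = 0.887), scro (0.883) and sc (0.875). For Wnt4 they were ps (0.972), galectin (0.961) and CG11658 (0.951), and CG11658 was also among the leading genes of cluster 4. For Wnt5 they were Dsp1 (0.95), crp (0.93) and Fbl6 (0.924). For fz they were Mkp3 (0.966), Pde1c (0.953) and nrv3 (0.947), and for fz2 CG17321 (0.961), trv (0.96) and CG30172 (0.959). wg was closest to CG31041 (0.938) and Wnt6 to CG2065 (0.979), genes with 96 and 93 UMIs in all, and Wnt2 had too few UMIs to be ranked.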

How the data were processed

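Single-cell libraries of 2 larval and 2 embryonic sorts were analysed from the gene-by-cell counts that the authors deposited. Those counts are whole UMIs for each gene and barcode, not normalised, and the barcodes had been filtered before deposit. They were made with Cell Ranger 3 on dm6 per the submitters' processing notes, whereas the study's methods name a later version. Barcodes were retained at 200 to 6000 detected genes with mitochondrial UMIs no higher than 5%, then integrated and clustered with Seurat 5.3.0 (2000 variable genes, 30 dimensions, resolution 0.5). A cluster was named when at least 3 markers of a list were each found in 25% of its cells and that list led the next by 0.5 on the log2 scale. That list also had to be in excess over the other clusters, with no other list holding more of the 10 leading genes. A cluster led by the list for ganglion mother cells or newborn neurons stayed unnamed if 25% or more of its cells held dpn. Cluster 4, with dpn in 33.6% of cells, was left unnamed by that rule. Scrublet (scanpy 1.11.5) called 28 doublets (0.674%), which were kept in the results and left out in an alternative. Counts were summed for each class and library, and stages were compared with edgeR 4.0.16 (quasi-likelihood, TMM, filterByExpr, Benjamini-Hochberg over all genes), checked on simulated counts. Each SE of a log2 fold change was worked back from that value and the F statistic of its test. CPM is UMIs per 1000000 UMIs of the class sum. Shares used cells thinned to 1000 UMIs, and intervals are exact (Clopper-Pearson).

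Genes named were all 8 members, up to 10 listed genes called in each class by size of change (with 1 exception, stated below), arr, fz3, fz4, drl, Ror and WntD whatever their values, and for each member the 3 genes most like it among those with at least 50 UMIs, over sums of at least 20 cells. The members and lists were chosen with earlier results of these data known. Alternatives were other size factors, no filter, DESeq2 1.42.0, each library left out, a replicate block, finer clusters, a gate on dpn, wor and nSyb, thinning to 1000 or 2000 UMIs, doublets left out and a mitochondrial maximum of 10%. Leaving out the deepest cell, or each gene's own top cell, was added after seeing the data. Depth ranged from a median of 3427 to 46395 UMIs a cell over libraries. Results of 2 genes of the polarity list, 1 of them called higher in neuron-like cells, are not reported here by name. No sequence is printed.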

Additional observations from a re-analysis of the deposited data

Results flagged for a closer look

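Vang, a planar polarity gene, was higher in both 24 h ALH libraries than in both stage 17 libraries in NSC-like cells and lower in neuron-like cells. Its log2 fold change (24 h ALH over stage 17) was 0.80 in NSC-like cells, from 78.6 and 77.0 CPM at 24 h ALH, against 61.8 and 47.6 CPM at stage 17, where the sums held 6 and 14 UMIs, and it did not pass the test (edgeR adjusted p = 0.0505). In neuron-like cells it was -0.91, from 41.9 and 35.6 CPM at 24 h ALH, against 82.0 and 56.0 CPM at stage 17. The neuron-like call (edgeR adjusted p = 0.0413) was lost in 6 of 15 alternatives. The difference between the classes was not tested. Only named genes were searched for such opposite orders, and the share of all genes that show them was not counted.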

How the results depend on the processing

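Of the 8 genes, Wnt4 in neuron-like cells kept its direction in all 15 alternatives (log2 fold change -2.34 to -1.58) and its call in 13, and fz2 kept its direction in 15 (-1.91 to -1.11) and its call in 13. Wnt10 in neuron-like cells turned to 0.67 under the gate and 0.23 with a mitochondrial maximum of 10%, and fz to 0.15 after thinning. With 1 library left out, neuron-like Wnt10 ran from -5.19 to 0.012 (adjusted p = 0.00696 without 24 h ALH replicate 2, edgeR), fz from -0.29 to 0.18 and arr from -0.97 to 0.15. In NSC-like cells Drl-2 ran from -6.91 to 7.47, pk from -2.12 to 0.52 and fz3 from -1.26 to 7.52, each highest without stage 17 replicate 2. fz3 was also 7.17 with a mitochondrial maximum of 10%, 7.09 without the deepest cells and 7.00 without its own top cells. The positive Drl-2 and fz3 values stand against 0 UMIs at stage 17 and are no measured fold. fz4 turned to 0.020 under the gate and pan to 0.23 without its own top cells.

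The neuron-like count of calls, 2199, was 511 of 3145 genes after thinning and 681 to 4087 with 1 library left out, and the 6 pathway calls became 2 after thinning and 1 to 17. The NSC-like count, 2491, was 4768 with finer clusters, 4690 with the gate, 244 of 2373 genes after thinning and 663 to 3056 with 1 library left out. The 9 pathway calls there became 18, 14 and 0 (DESeq2 called 12) and 1 to 14. Fewer cells and genes enter after thinning; the cause of the other changes was not tested. The median of all genes moved with DESeq2 on unfiltered genes to -0.70 in NSC-like cells, in place of 0.19, and to -0.10 in neuron-like cells, in place of -0.00, and with edgeR and no filter to 0.86 in NSC-like cells. The labels share replicate numbers, but same-numbered libraries did not deviate together (r = 0.04 in neuron-like and -0.04 in NSC-like cells). With a replicate block 2200 and 1990 genes were called, and 6 pathway genes in each class; arr, pk and pan lost their NSC-like calls.

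The NSC-like contrast rests on 97152 and 293880 UMIs in 27 and 27 cells at stage 17, and on how the class is drawn. Glia-like, muscle-like and newborn neuron-like classes were described without a stage test.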
